A study of Mus musculus with 4 samples.

Results

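The genes described here encode the proteins of the cytosolic ribosome, measured in cultured neural precursor cells of the mouse forebrain. Members were the array's probe sets annotated to exactly 1 gene whose symbol starts with Rpl or Rps and a digit, or is Rpsa, Rplp0, Rplp1 or Rplp2; S6 kinases and pseudogene symbols were left out. A probe set is a group of short probes that together give 1 signal for a transcript. The rule found 106 of 45037 probe sets and 50 of 18193 genes. By symbol, 26 were Rpl genes (large subunit) and 24 were Rps genes (small subunit), relatives that are not subunits included. Another 110 probe sets list a ribosomal protein gene beside other genes and are not members; 31 ribosomal protein genes, among them Rplp1, Rpl3, Rpl23 and Rps12, appear only there.

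The RNA came from telencephalic neuroepithelial cells of ICR mice and was hybridised to 4 arrays, 2 per group. The E11.5 cells came from embryonic day 11.5 and were cultured for 1 day; the E14.5 cells came from embryonic day 14.5 and were cultured for 4 days. All cultures received basic FGF, which keeps such precursors dividing, on polyornithine and fibronectin. By its title, the study asked which genes restrict astrocyte differentiation of midgestational neural precursors. Embryonic age and days in culture changed together, so their parts cannot be told apart.

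The ribosome joins amino acids into protein. Its small subunit reads the mRNA, and its large subunit forms the peptide bonds and holds the tunnel through which the new chain leaves. Most of the protein subunits are needed in equal number, and their mRNAs are among the most abundant in dividing cells. These mRNAs typically begin at a cytosine followed by a tract of pyrimidines (C or T), the 5′ terminal oligopyrimidine or TOP motif, through which mTOR signalling and LARP1 set their translation as a group. In neural precursors, ribosome supply is tied to growth and division.

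The sequences around the annotated start of transcription show which members hold a pyrimidine run near it. Each line holds 30 bases, 15 on each side of the boundary of the first start site listed by RefSeq (GRCm38.p6), 5′ to 3′ on the gene's strand; capitals mark runs of at least 7 C or T that begin with C. The minimum length was chosen after the sequences were seen. A run can lie on either side of the boundary and is not by itself a TOP motif: that of Rpl4 lies wholly before the annotated start and that of Rpl22l1 wholly after it. The genes shown were taken from the members described below, with and without a run.
Rps6, chr4:86857353-86857382, minus strand: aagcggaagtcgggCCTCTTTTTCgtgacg
Rpl4, chr9:64173372-64173401, plus strand: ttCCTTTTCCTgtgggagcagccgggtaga
Rps18, chr17:33955651-33955680, minus strand: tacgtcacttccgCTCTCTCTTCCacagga
Rpl35, chr2:39005117-39005146, minus strand: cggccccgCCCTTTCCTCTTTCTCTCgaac
Rpl7a, chr2:26910792-26910821, plus strand: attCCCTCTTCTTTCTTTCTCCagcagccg
Rplp2, chr7:141447636-141447665, plus strand: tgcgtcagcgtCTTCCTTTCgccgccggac
Rpl41, chr10:128549154-128549183, minus strand: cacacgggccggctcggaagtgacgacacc
Rpsa, chr9:120127751-120127780, plus strand: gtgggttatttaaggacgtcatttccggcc
Rpl22, chr4:152325711-152325740, plus strand: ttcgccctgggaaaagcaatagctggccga
Rpl22l1, chr3:28805493-28805522, plus strand: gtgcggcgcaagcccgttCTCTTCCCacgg

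A run was present in the window of 20 of the 44 member genes with a listed start site (45.5%), and in 3797 of 27025 mouse genes (14.05%). On the opposite strand it was present in 2 of the 44 members (4.55%) and in 15.28% of all genes. Genes of the mitochondrial ribosome, whose proteins are made by the cytosolic one, held it in 11 of 69 windows (15.9%). Among the tested members with a start site, it was present in 11 of the 25 genes called higher below and in 8 of the 16 that did not pass. The longest of the runs shown are those of Rpl7a, with 19 bases, and Rpl35, with 18. A window without a run says only that these letters are not there.

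The arrays differed in brightness before any comparison. The 2% trimmed mean of the deposited intensities was 187 and 252 on E11.5 arrays 1 and 2, and 154 and 103 on E14.5 arrays 1 and 2, so the 2 dimmest arrays were those of the E14.5 group. Each array was therefore multiplied by 1 factor to a common trimmed mean of 174, and signals below are scaled values in arbitrary units. A log2 difference is E14.5 minus E11.5 of log2(signal + 12.8), tested with limma; a call means an adjusted p under 0.05 over all 27022 probe sets tested. A gene stands for its brightest tested probe set. Since probes differ in how strongly they bind, signals are compared between arrays; the rank of a signal serves only to choose a gene's probe set and to form classes of brightness, not to compare amounts between genes.

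Neural progenitor markers were measured in both groups: 9 of 10 were tested, 4 were higher and 1, Pax6, was lower, and their summed signal was 20565 and 22432 at E11.5 and 30470 and 31685 at E14.5. Markers of other cells moved with the groups. The 10 neuron markers summed to 14642 and 15096 at E11.5 and to 5196 and 5008 at E14.5, with 9 lower and none higher. The 6 oligodendrocyte precursor markers summed to 860 and 622 at E11.5 and to 16720 and 19049 at E14.5, with all 6 higher, and the 10 tested of 11 microglia markers went from 292 and 405 to 2164 and 2055, with 8 higher. Proliferation genes summed to 19534 and 19664 at E11.5 and to 14120 and 12116 at E14.5, with 7 of 9 tested lower. Of the erythroid, endothelial and mesenchymal markers 2, 2 and 6 were tested, and summed signals ran from 353 to 772, 75.7 to 90.2 and 1144 to 1165 at E11.5 and from 18.1 to 24.2, 130 to 143 and 551 to 628 at E14.5. Fewer cells of a type and less RNA per cell cannot be told apart in these bulk samples, and the part of the cell makeup in the ribosomal protein differences was not tested.

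After scaling by 1 factor per array, 29 of the 47 tested ribosomal protein genes were higher in E14.5 cells, none was lower and 18 did not pass. Of all 12952 genes tested, 14.3% were called higher and 13.6% lower. The median log2 difference of the 47 genes was 0.45, against 0.029 over all genes, and 40 of the 47 differences were above 0. By symbol, 14 of 24 Rpl genes rose with a median of 0.43, and 15 of 23 Rps genes rose with a median of 0.47. Both E14.5 arrays lay above both E11.5 arrays in 37 genes and below them in 2, compared with 34.6% and 31% of all genes. The size of this rise depended on how bright a probe set was and on how the arrays were scaled, as described after the single genes.

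**Figure D1:**
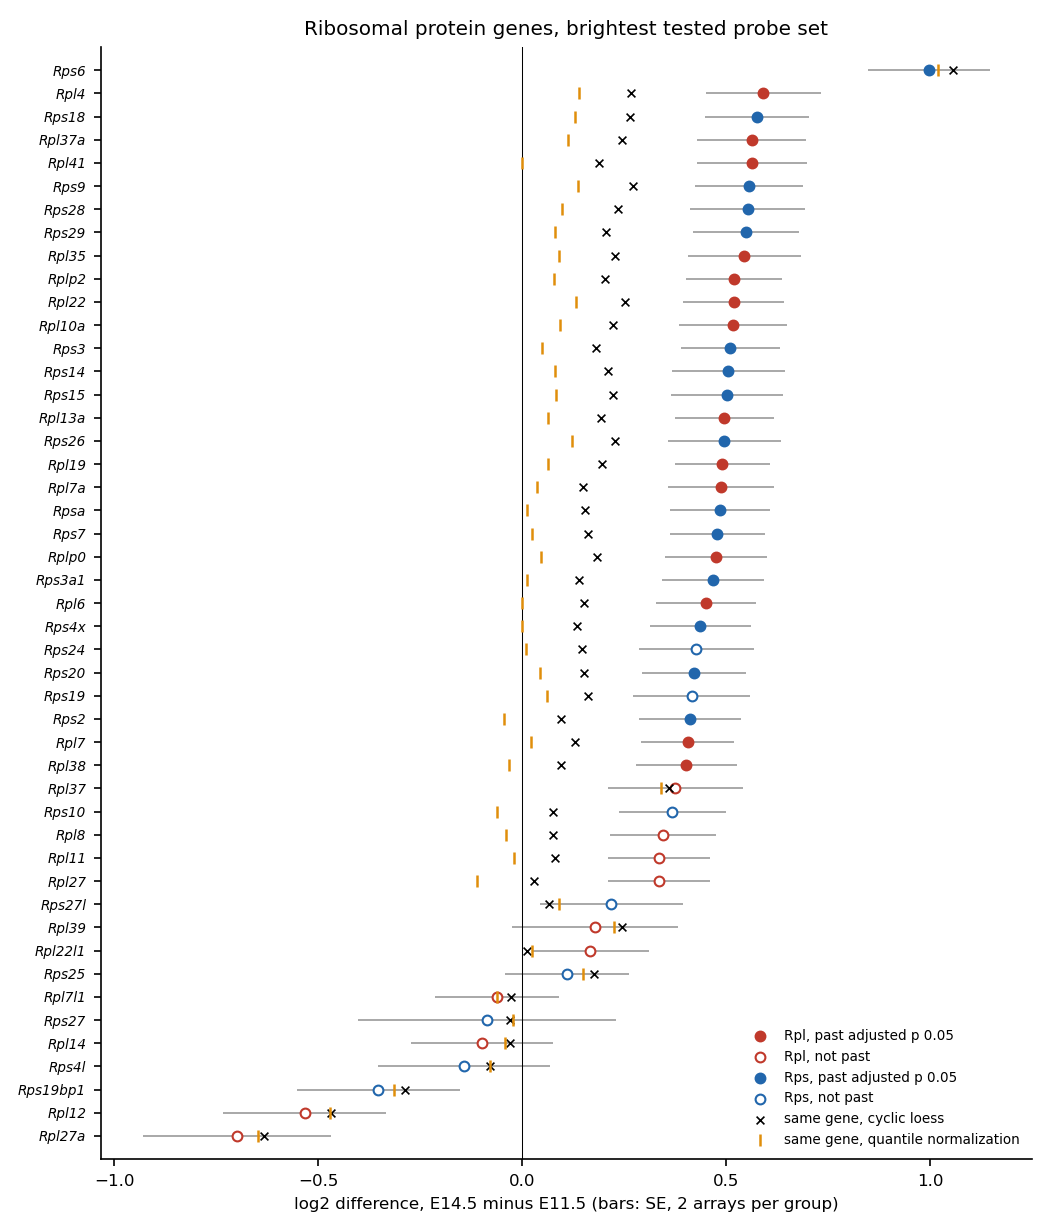
Log2 difference (E14.5 minus E11.5) of each of the 47 tested ribosomal protein genes. Bars give the SE from limma (2 arrays per group), which draws on the spread of all tested probe sets. Filled points passed a limma adjusted p of 0.05 with 1 factor per array. Crosses give the same gene after cyclic loess and upright ticks after quantile normalization. Most genes form a narrow column between 0.33 and 0.59 with 1 factor, move toward 0 under the other scalings, and Rps6 stands apart at 1.00, 1.06 and 1.02.

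Rps6 showed the largest rise. It encodes the small-subunit protein that S6 kinases phosphorylate downstream of mTOR. Its signal in probe set 1416142_at was 336 and 376 at E11.5 and 675 and 771 at E14.5. The groups did not overlap, and the log2 difference was 1.00 ± 0.15 (SE from limma, 2 arrays per group, limma adjusted p = 0.00095). This SE, here and below, draws on the spread of all tested probe sets. The difference was 1.06 after cyclic loess and 1.02 after quantile normalization, and this gene was called under every alternative tried except the values as deposited, where it was 0.24. With the gene's probe sets averaged it was 0.53. The other Rps6 probe sets did not give this size. The dim set 1453466_at differed by 0.073, and the bright set 1416141_a_at, which also lists another gene, went from a mean of 7591 to 10728, a difference of 0.49 that was 0.16 after loess. A further shared set, 1455981_at, had a difference of 0.60 and did not pass (adjusted p = 0.068). Of the other dim shared sets, 1435816_at went from a mean of 433 to 399 (-0.12). The sets 1435817_x_at (0.23) and 1437246_x_at (0.38) did not pass either. The bright shared sets 1434377_x_at, 1454620_x_at and 1455693_x_at had differences of 0.45, 0.46 and 0.48.

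Among large-subunit genes the largest rise was that of Rpl4, whose protein reaches into the wall of the exit tunnel. Its signal was 7697 and 6201 at E11.5 and 9562 and 11337 at E14.5. The E11.5 arrays differed from each other by less than the groups did, and the log2 difference was 0.59 ± 0.14 (adjusted p = 0.013). Rpl37a, a small zinc-finger protein of the large subunit, went from 7474 and 6154 to 9385 and 10715, with a difference of 0.56. Rpl35, at the rim of the exit tunnel, went from 7176 and 6244 to 8761 and 10894, with a difference of 0.54 that was 0.33 and did not pass with its probe sets averaged. Rpl7a, another large-subunit protein, went from 8235 and 7380 to 9968 and 12006, with a difference of 0.49 that was 0.32 and did not pass with a factor from the brightest 5% of probe sets. In each of these genes the lowest array was E11.5 array 2 and the highest was E14.5 array 2.

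Rpl41, which encodes a very short, strongly basic peptide of the large subunit, had probe sets that disagreed. In 1455578_x_at its signal was 9889 and 8569 at E11.5 and 12306 and 15038 at E14.5, a difference of 0.56 ± 0.13 (adjusted p = 0.013). A dim probe set of the same gene, 1433530_at, moved the other way, from 122 and 98.8 to 70.0 and 38.3. Its difference was -0.91 ± 0.29 (adjusted p = 0.044), and it was the only member probe set called lower; after loess it was -0.89 and did not pass (adjusted p = 0.055). The 2 remaining sets also split, with 0.36 for 1422623_x_at and -0.60 for 1454639_x_at, neither past the threshold. Rpl41 was the only member gene with probe sets called in opposite directions.

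The stalk of the large subunit, formed by Rplp0 with copies of Rplp1 and Rplp2, recruits the elongation factors. Rplp0 gave signals of 6379 and 5598 at E11.5 and of 7802 and 8861 at E14.5, a difference of 0.48 ± 0.13 (adjusted p = 0.020). Rplp2 gave 7196 and 6412 at E11.5 and 9552 and 9936 at E14.5, a difference of 0.52 ± 0.12 (adjusted p = 0.0094). For both genes the groups did not overlap. Rplp1 was represented only by 1416277_a_at, a probe set that lists another gene too; it went from a mean of 6809 to 10226 with a difference of 0.58.

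Among small-subunit genes after Rps6, Rps18, a protein of the subunit's head, had the largest rise. Its signal was 6873 and 6108 at E11.5 and 8947 and 10438 at E14.5, a difference of 0.58 ± 0.13 (adjusted p = 0.0084). Rps9 (0.56) and Rps3 (0.51), both at the entry of the mRNA channel, rose similarly, as did Rps28 (0.55) and Rps3a1 (0.47) near the channel's exit and the zinc-binding head protein Rps29 (0.55). Rpsa, the small-subunit protein also known as the laminin receptor, gave 7757 and 7083 at E11.5 and 9689 and 11121 at E14.5, a difference of 0.49 ± 0.12 (adjusted p = 0.016). The 4 signals of Rps29 were 8279 and 7242 at E11.5 and 10399 and 12336 at E14.5. As in the large subunit, E11.5 array 2 was the lowest and E14.5 array 2 the highest in each of Rps18, Rpsa and Rps29.

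Relatives of ribosomal proteins that the symbol rule also takes in were not called. Rpl22l1, a paralog of the RNA-binding protein Rpl22, gave 2908 and 2640 at E11.5 and 3521 and 2753 at E14.5, with overlapping groups and a difference of 0.17 ± 0.14. Rps27l, a p53-inducible paralog of Rps27, gave 3281 and 2213 at E11.5 and 2950 and 3338 at E14.5, again overlapping, with a difference of 0.22 ± 0.18. Rpl7l1, a nucleolar relative of Rpl7 that takes part in ribosome assembly, differed by -0.06 ± 0.15. The relative of Rps4x, Rps4l, differed by -0.14 ± 0.21, and Rps19bp1, which binds Rps19 and is not a subunit, by -0.35 ± 0.20. The median of these 5 genes was -0.06, and that of the other 42 tested member genes was 0.48, with 29 called higher. The difference between the 2 sets was not tested, and brightness differed with it. The 5 had mean signals from 144 to 2956. Rpl7l1, Rps4l and Rps19bp1 are among the 11 member genes below the brightest 5% of probe sets, whose median was -0.09.

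Of the 50 genes, 3 were below the signal filter of 27.3. Rpl39l and Rpl3l, paralogs known from testis and striated muscle, had mean signals of 16.7 and 6.57. Rps16 had a mean of 3.57 in its single one-gene probe set, while its brighter probe sets list several genes. Other members rested on weak probe sets beside bright shared ones. Rpl27a had a mean of 213 in E11.5 and 129 in E14.5 cells in its one-gene set (-0.70, adjusted p = 0.052), and a shared set listing it went from 5832 to 8723 (0.58). Rpl12 had 184 and 124 in its one-gene set (-0.53, adjusted p = 0.082) and 5826 and 7626 in a shared one (0.39, adjusted p = 0.034). A brighter shared set listing Rpl12, 1435725_x_at, went from 6497.5 to 7976.8 (0.30) and did not pass (adjusted p = 0.10).

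Over probe sets, 48 of the 97 tested were higher, 1 was lower and 48 did not pass, compared with 11.1% higher and 12.6% lower among all probe sets tested. The suffix of a probe set tells how specific its probes are. Sets ending in _a_at cover several transcripts of 1 gene, and those in _s_at and _x_at can also pick up other transcripts, while sets with no such letter are the most specific. Of 28 tested _a_at sets 17 rose with a median of 0.44, of 38 _x_at sets 23 rose with a median of 0.43, and all 3 _s_at sets rose. Of the 28 tested sets with no such letter 5 rose and 1 fell, with a median of -0.07. Brightness moved with the suffix: the 69 member probe sets among the brightest 5% of all tested ones (signal of at least 1629) had a median of 0.44 with 45 higher, and the 28 dimmer ones a median of -0.12 with 3 higher and 1 lower.

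**Figure D2:**
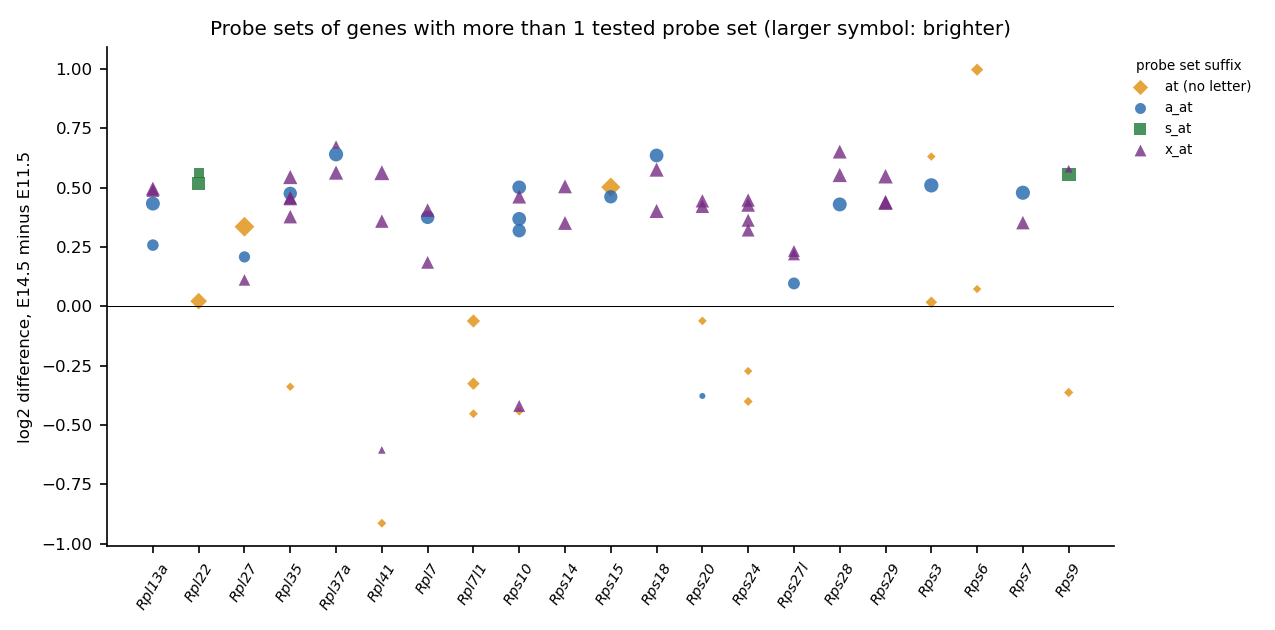
Log2 difference (E14.5 minus E11.5) of every tested probe set of the 21 genes with more than 1, by gene along the horizontal axis; shape and colour give the probe set suffix and larger symbols are brighter. Large symbols gather between 0.3 and 0.65, and the small ones spread on both sides of 0, as for Rpl41 and Rps9.

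In 6 of the 21 genes with several tested probe sets, the sets differed in sign: Rpl35, Rpl41, Rps9, Rps10, Rps20 and Rps24. Rps9 rose in the bright set 1433689_s_at (0.56) and in the dim set 1434624_x_at, which went from 217 and 264 to 365 and 362 (0.58, adjusted p = 0.030), while 1426958_at differed by -0.36 and did not pass; averaged over the 3 sets the difference was 0.26 and did not pass. For Rps10, another small-subunit protein, 4 bright sets lay between 0.32 and 0.50. Another Rps10 set, 1439374_x_at, had 4284 and 2631 at E11.5 and 2497 and 2517 at E14.5, a difference of -0.42 with an adjusted p of 0.15. In Rpl22, the set 1453118_s_at rose by 0.52 and 1448398_s_at rose from 1105 and 893 to 1354 and 1597 (0.56, adjusted p = 0.022), while 1416603_at gave 3117 and 2494 at E11.5 and 2935 and 2731 at E14.5, a difference of 0.022. Which transcripts these sets detect was not tested.

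The rise was concentrated in the bright probe sets, and at the very top of the signal range other probe sets also had positive differences. The 36 member genes in the brightest 5% of probe sets all had differences above 0, from 0.17 to 0.59, with 28 called and a median of 0.49; the 719 other genes of that class had a median of 0.13. The 11 dimmer member genes had a median of -0.09, with Rps6 alone called. Of the 1203 other probe sets in the brightest 5%, which exclude those listing a ribosomal protein among several genes, 26.4% were called higher and 9.73% lower; after cyclic loess these shares were 19.6% and 20.4%. In the top 1% of signal, from 4459 to 11451, the 59 member probe sets had a median of 0.46 with 45 higher, and the 145 other probe sets had a median of 0.37 with 72 higher and 0 lower. One step below, between 2978 and 4456, the other probe sets had a median of 0.13, and at the foot of the brightest 5% a median of -0.0093.

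**Figure D3:**
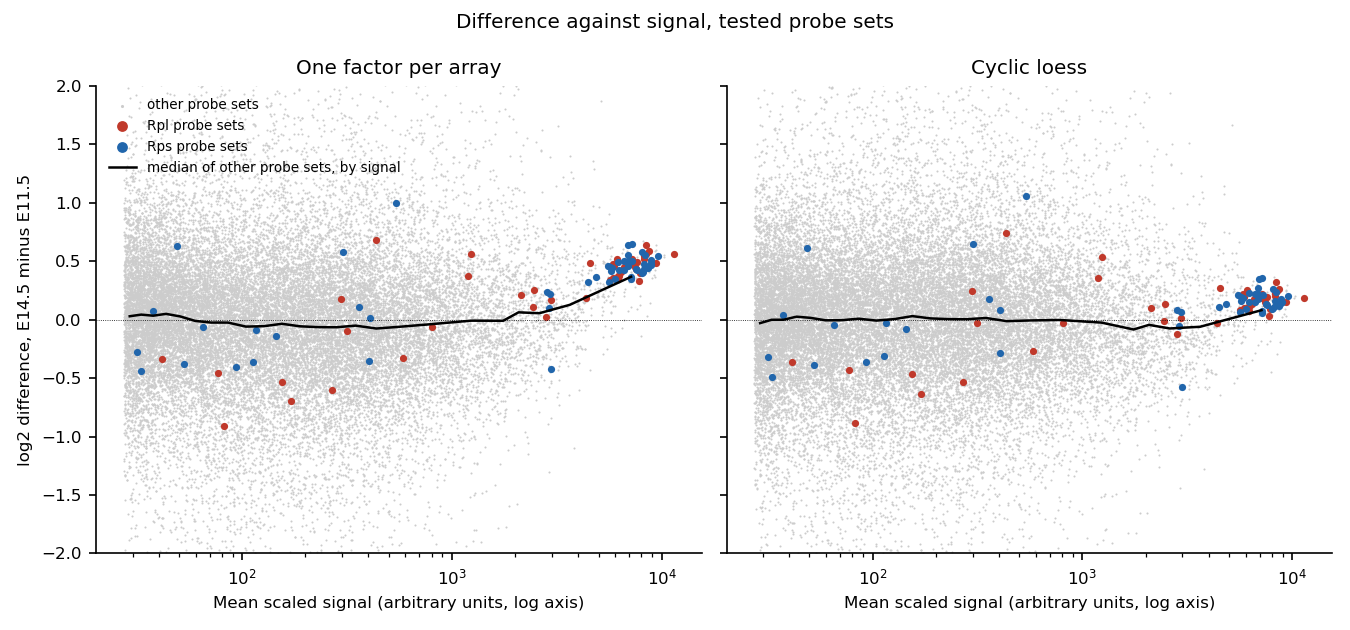
Log2 difference (E14.5 minus E11.5) against mean scaled signal on a log axis for all tested probe sets, with 1 factor per array at left and after cyclic loess at right; the vertical axis is cut at -2 and 2. Ribosomal protein probe sets (red, Rpl symbols, and blue, Rps symbols) cluster at the bright end. The median of the other probe sets (black line) also climbs there at left, to 0.37 in the top 1%, and reaches 0.081 at right.

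Before scaling, the ribosomal protein signals were lower on the E14.5 arrays, though by less than the arrays as a whole. The median deposited signal of the 36 bright genes was 7316 and 8545 on E11.5 arrays 1 and 2, and 7187 and 5452 on E14.5 arrays 1 and 2. The highest of these medians was 1.57 times the lowest, while the ratio was 2.43 for the trimmed means and 2.15 for the median of the other probe sets in the brightest 5%. After scaling the order of the arrays turned round: the medians were 6817, 5907, 8113 and 9172. The array with the highest deposited signal, E11.5 array 2, then held the lowest scaled signal in 36 of the 36 genes, and E14.5 array 2, the dimmest, held the highest in 35.

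The same order appeared within each group. E11.5 array 2 lay below E11.5 array 1 by a median of -0.20 with none of the 36 genes above 0, and E14.5 array 2 lay above E14.5 array 1 by 0.19 with 35 of 36 above 0. For the 1203 other probe sets of the brightest 5%, the E11.5 median was -0.11 with 307 above 0. Their E14.5 median was -0.0072 with 580 above 0. For the 36 genes, the 4 differences between an E14.5 and an E11.5 array had medians of 0.28, 0.47, 0.47 and 0.66. Bacterial control RNAs gave a further reading: the brightest of them, CreX-3, had deposited signals of 4501 and 5554 at E11.5 and 4304 and 2819 at E14.5, and scaled log2 signals higher by 0.26 at E14.5. Over the 9 control probe sets the scaled difference ran from -0.038 to 0.27. Ribosomal protein members made up 3.81% and 3.37% of the summed signal of the E11.5 arrays and 4.32% and 4.80% of that of the E14.5 arrays. The part of array brightness in the ribosomal protein differences was not tested.

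**Figure D4:**
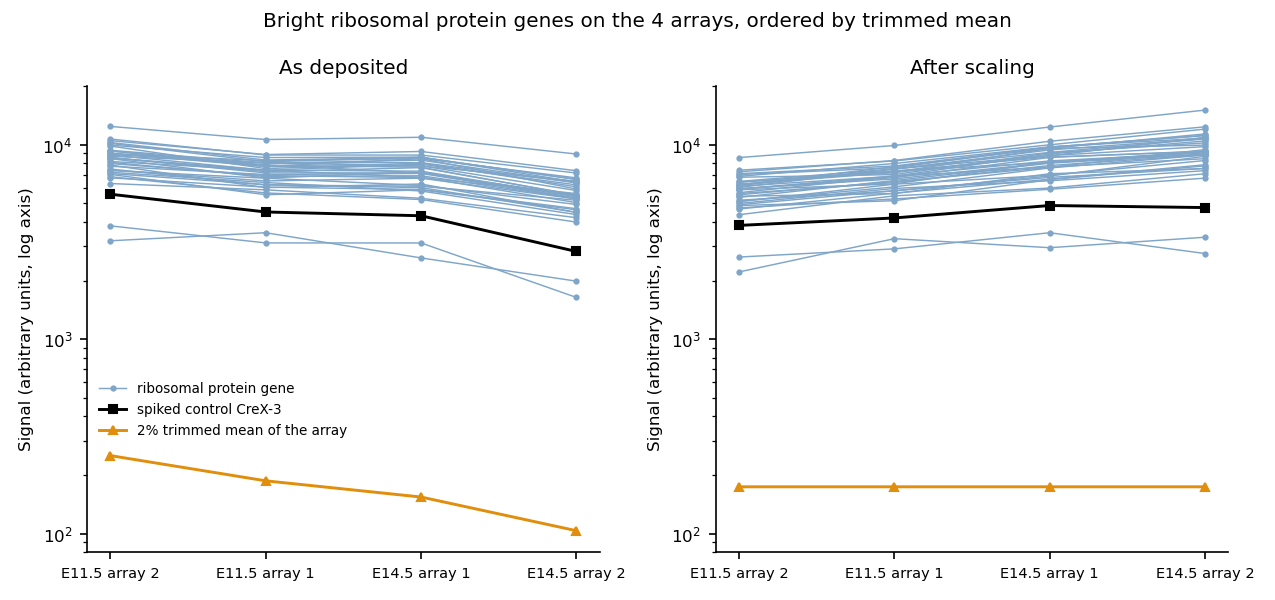
Signal (arbitrary units, log axis) of the 36 bright ribosomal protein genes (blue), the bacterial control CreX-3 (black squares) and the 2% trimmed mean (orange triangles) on the 4 arrays, ordered from the brightest array to the dimmest, as deposited at left and after scaling at right. The blue lines fall less steeply than the trimmed mean at left and climb at right, where the control is higher on both E14.5 arrays but does not climb from E14.5 array 1 to array 2.

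When the arrays were brought together with cyclic loess, which removes differences that depend on signal and assumes that they average to 0 at every level, the median over the 47 genes was 0.16. With that scaling 1 member gene, Rps6, was called, while 14.8% of all genes were called higher and 13% lower. With quantile normalization the median was 0.043, and Rps6 was again the 1 gene called, beside 14.4% of all genes higher and 13.5% lower. In the top 1% of signal, 59 member probe sets and 67 that list a ribosomal protein among several genes stood beside 145 others. Both scalings bring that range together between arrays, so by construction they can remove a shift that these sets share. With 1 factor taken from the other probe sets of the brightest 5%, 19 genes were higher and 2 lower, the median was 0.28, and 10.1% and 19.2% of all genes were called. As deposited, the median was -0.33 with 0 genes higher and 2 lower, beside 1.95% and 17% of all genes. By probe set, 22 members were higher and 6 lower with the factor from the brightest 5%, where 7.89% and 17.9% of all probe sets were called, and 0 and 5 as deposited, where 1.48% and 18.2% were. Testing without the signal filter or fitting without a variance trend also left 1 gene called, Rps6 each time. Over all probe sets, 2228 were then higher and 2499 lower without the filter, and 1919 and 2097 without the trend. The reported fit gave 3012 and 3396. Leaving out E14.5 array 2 put the median over the 47 genes at 0.36, and leaving out E11.5 array 1 put it at 0.55. With an array left out, 1 residual degree of freedom remained, and the lone array of a group was assumed to vary like the other group's.

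Of the 97 member probe sets, 6 stayed higher after loess, beside 11.4% of all probe sets higher and 11.9% lower. They were 1416142_at of Rps6 (1.06), 1434624_x_at of Rps9 (0.65), 1448398_s_at of Rpl22 (0.54), 1454778_x_at of Rps28 (0.36), 1435712_a_at of Rps18 (0.35) and 1416217_a_at of Rpl37a (0.32). The Rps10 set 1439374_x_at was then called lower (-0.57, adjusted p = 0.032). After quantile normalization the sets of Rps6, Rps9 and Rpl22 and that of Rps10 were called in the same directions, with 1 more set higher, that of Rps18; 11% of all probe sets were then higher and 12.3% lower. Among the 59 members in the top 1% of signal, the loess median was 0.18, against 0.081 for the other probe sets there.

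The genes that work with the ribosome were taken as 4 lists. Of 35 tested translation factors, 9 rose and 6 fell with a median of 0.12, beside 14.3% higher and 13.6% lower among all genes; after loess 4 were higher and 6 lower. Eef2k, the kinase that inhibits elongation factor 2, rose from 210 and 151 to 498 and 479 (1.39 ± 0.19), and Eif4b, a cofactor of the initiation helicase, from 1875 and 1870 to 2907 and 3385 (0.74 ± 0.13). The start-codon factor Eif1a fell from 354 and 345 to 205 and 180 (-0.82 ± 0.16; -0.48 with its probe sets averaged). Eif4ebp1, a repressor of cap-dependent translation under mTOR control, fell from 599 and 550 to 355 and 298 (-0.80 ± 0.16). Without the _s_at and _x_at sets its value was -0.35 and it did not pass. Each of these 4 kept its direction and its call after loess, with differences of 1.46, 0.62, -0.75 and -0.73. Eef1a1 and Eef2, the elongation factors, lay in the same bright range, with differences of 0.54 and 0.57 with 1 factor and of 0.18 and 0.30 after loess, where Eef2 still passed; they were chosen after their values were seen.

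Partners of the ribosome gave 3 higher and 1 lower of 8 tested, beside 14.3% higher and 13.6% lower among all genes. Fau, which encodes a small-subunit protein fused to a ubiquitin-like domain, went from 5351 and 4605 to 6283 and 7845 (0.50 ± 0.14), and Tpt1, whose mRNA carries a TOP motif, from 8320 and 7425 to 9779 and 11454 (0.43 ± 0.13). After loess these were 0.24 and 0.091 and neither passed; after quantile normalization Tpt1 was at -0.034. Nacad, related to the chaperone that meets nascent chains at the tunnel, fell from 285 and 255 to 69.9 and 75.6 (-1.73 ± 0.19).

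The ribosome biogenesis list holds genes that build ribosomes in the nucleolus, Myc genes that drive growth, and the p53 pathway. Of its 35 tested genes 12 fell and 1 rose, beside 13.6% lower and 14.3% higher among all genes. The median of the list was -0.32, and -0.34 after loess. Among the 12 is Mdm2 (-0.59), a p53 ubiquitin ligase that does not build ribosomes. The snoRNA-protein Nop56 fell from 1117 and 856 to 598 and 439 (-0.92 ± 0.18). The growth-promoting transcription factors went in opposite directions, with Mycn lower (506 and 442 to 177 and 81.8; -1.86 ± 0.28) and Myc, the 1 riser, higher (222 and 288 to 640 and 675; 1.33 ± 0.17). Proteins of the mitochondrial ribosome gave 6 higher and 0 lower of 76. Both are smaller shares than the 14.3% higher and 13.6% lower among all genes. The medians of these proteins were 0.099 and 0.13 by the 2 scalings. The largest rises there were those of Mrpl48, from 351 and 431 to 883 and 902 (1.17 ± 0.15; 0.61 with its probe sets averaged), and Mrps16, from 517 and 412 to 801 and 740 (0.72 ± 0.15). Fitted without a variance trend, Nop56 and Mrps16 did not pass. The differences between these lists and the ribosomal proteins were not tested.

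**Figure D5:**
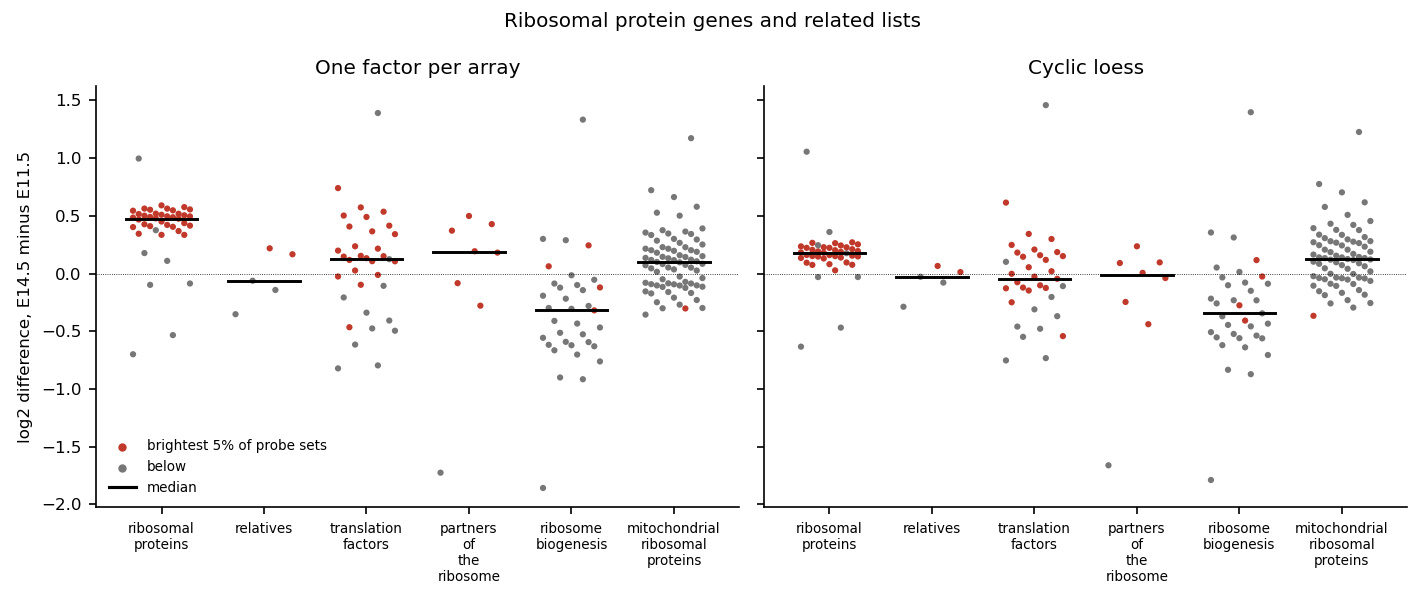
Log2 difference (E14.5 minus E11.5) of each tested gene of the cytosolic ribosomal proteins, their relatives and 4 related lists, with 1 factor per array at left and after cyclic loess at right; red points lie in the brightest 5% of probe sets, grey ones below, and black bars are medians. Most ribosomal proteins are red points near 0.48 at left, and the ribosome biogenesis genes have a median of -0.32 at left and -0.34 at right.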

How the data were processed

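Total RNA was hybridised to 4 Affymetrix arrays, 1 deposited intensity per probe set, made by the authors with GCOS, per the submitters' processing notes (version not given in the sources used here). Of 45101 probe sets 64 controls were set aside; gene names are the platform annotation's, and all 106 members matched a mouse gene by Entrez identifier. Each array was multiplied (0.932, 0.691, 1.13 and 1.68) to 1 trimmed mean (2%) of 174, a mean signal of 27.3 (40th percentile) was required, and 12.8 (25th percentile) was added before log2, which shrinks differences of dim genes. limma 3.58.1 in R 4.3.3 (lmFit, eBayes with trend, 2 residual and 7.99 prior degrees of freedom) was fitted to 27022 probe sets with Benjamini-Hochberg adjustment at 0.05. The fit was tested on simulated data with independent noise for each probe set. Those data held no shift of bright probe sets between arrays, so the test does not cover one. Nothing in the labels says that replicates came from separate cultures or animals, so the p-values reflect only how these 4 arrays vary, which may be technical, and their number limits the precision.

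Members and lists were chosen with earlier results of these data known. Genes named were up to 10 largest called rises and falls without overlap, the 6 brightest members, the stalk proteins and Rpsa, relatives, genes with opposite calls and, per list, the 2 largest called rises and falls; others, including single probe sets, Mdm2, Pax6, Rpl22, Rps10, Rpl12, Rpl27a and Rps16, were chosen after their values were seen. Alternatives were other scalings, pseudocounts, filters, probe set choices, arrays left out and a replicate block.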

Additional observations from a re-analysis of the deposited data

How the results depend on the processing

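Of 47 ribosomal protein genes, 29 were higher with 1 factor per array. Cyclic loess left 1 gene and 6 probe sets higher with a median of 0.16; quantile normalization left 1 and 4 with a median of 0.043, and Tpt1 at -0.034. Testing without the filter left 1 gene and 2 probe sets higher, 0 lower, and 23 genes of the related lists (38 in the reported fit), while 2228 probe sets were higher and 2499 lower over all. Without a variance trend there were 1 gene and 1 probe set higher, 0 lower, 9 genes of the lists, and 1919 probe sets higher and 2097 lower over all (3012 and 3396 as reported). A factor from the brightest 5%, chosen after seeing the data, gave a median of 0.28, 22 probe sets higher and 6 lower, and 19 genes higher and 2 lower. As deposited, with arrays of unequal brightness, 400 probe sets were higher over all; members had 0 genes and 0 probe sets higher and 2 and 5 lower with a median of -0.33, and the lists 21 called. Then Rpl4 was at -0.19, Rps18 -0.20, Rpl37a, Rpl41 and Rps9 -0.22, Rps28, Rps29 and Rpl35 -0.23, Rplp2 -0.26, Rps3 -0.27, Rpl7a and Rpsa -0.29, Rplp0 -0.30, Rps3a1 -0.31, Rps27l -0.56, Rpl22l1 -0.61, Fau -0.28, Tpt1 -0.35, Mrps16 -0.040 and Eif4b -0.035. Averaging a gene's probe sets put Rpl41 at -0.15 and gave 2 genes lower; without _s_at and _x_at sets Rpl41 was at -0.91 and Rps9 at -0.36, with 1 gene lower and 22 probe sets higher. The larger pseudocount gave 1 gene and 2 probe sets lower; the median factor gave 0 probe sets lower and put Rpl7l1 at 0.0063. Leaving out each array in turn gave 1 to 37 genes higher and 0 to 1 lower, 2 to 66 probe sets higher and 0 to 4 lower, medians of 0.36 to 0.55, 16 to 41 called genes in the lists, and 2256 to 3148 probe sets higher and 2750 to 3405 lower over all. Then Rpl22l1 ran from -0.0095 (without E14.5 array 1) to 0.34, Rps27l from -0.064 (without E11.5 array 2) to 0.50, and Rpl7l1 from -0.24 to 0.12 and Rps4l from -0.33 to 0.049 (both highest without E11.5 array 1). Cyclic loess and quantile normalization can by construction remove a shift that bright probe sets share. Why the results changed between settings was not tested. Same-numbered arrays did not deviate together (r = 0.0041 across probe sets). The labels do not say whether they were handled in pairs, and a correlation over all probe sets cannot show that they were not. With the replicate block 24 genes were higher and 1 lower, and 39 probe sets higher and 3 lower, beside 3312 and 3861 probe sets over all.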

Other observations

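Of the 110 probe sets that list a ribosomal protein beside other genes, 102 were tested, 58 rose and 1 fell, with a median of 0.45; among all probe sets 11.1% were higher and 12.6% lower. After cyclic loess 13 were higher and 1 lower, beside 11.4% and 11.9% of all. Among those chosen after their values were seen, Rpl28, in 1416074_a_at, went from 7075 and 5704 at E11.5 to 9515 and 10991 at E14.5, a difference of 0.69 that was 0.37 after loess. Rpl36, in 1416520_x_at, went from 3514 and 2868 to 4732 and 5215 (0.64; 0.44 after loess). Rps12, in 1448344_at, went from 1882 and 1962 to 2997 and 3044 (0.65, and 0.52 after loess). Brighter sets listing these genes had smaller differences and did not pass after loess. For Rpl36, 1416519_at differed by 0.50 (0.21 after loess). For Rps12, 1433432_x_at differed by 0.47 (0.18 after loess) and 1416453_x_at by 0.44 (0.16 after loess). The 1 set that fell lists Rpl3, a large-subunit protein at the peptidyl transferase centre, among 3 genes: 1438527_at went from 151 and 101 to 42.5 and 31.5 (-1.46; adjusted p = 0.0039), while the bright set 1449323_a_at that also lists Rpl3 rose from a mean of 6785 to 9450 (0.48). Which of the listed genes these sets detect was not tested.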
